A study of Mus musculus with 13 samples.

Results

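The genes described here were the 730 genes of mouse chromosome 3 with at least 1 CPM (counts scaled to the library total) in each of the 6 primary libraries, out of 2885 chromosome 3 genes and 55487 genes in the count tables. They were selected on position and on CPM in the primary cells, and the chromosome itself was selected on the measure described next, the median log2 ratio of its genes between immortalized and primary cells, so values of that measure are given as a description with no test. The libraries were poly-A RNA-seq of mouse embryonic fibroblasts (MEFs), the connective tissue cells grown from dissociated embryos, taken before and after spontaneous immortalization in serial culture. Wild-type (WT) MEFs gave 3 primary libraries, numbered 3, 4 and 5 after their embryos, and 3 immortalized lines with the same numbers. Prkd3-/- MEFs, which carry the null genotype of the protein kinase D family gene Prkd3, gave 3 primary libraries (13, 14 and 15) and 4 immortalized lines (13, 13a, 14 and 15), and lines 13 and 13a carried the number of 1 embryo. Cultures were kept in medium with 10% fetal calf serum and passaged to senescence, then held in 20% serum until colonies grew out. The resulting lines were expanded in 10% serum. The paper gives this protocol and covers the WT cells only. By this protocol each line was grown from colonies that escaped senescence. The age of the embryos and the strain were not given in the sources used here, nor was the part of Prkd3 that was deleted.

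Mouse chromosomes have their centromere at one end, so that gene order along chromosome 3 runs as a single arm from the centromere to the far telomere. Spontaneously immortalized mouse fibroblasts are known as cells that often carry gains and losses of chromosomes, and RNA of many neighbouring genes can then move together by small amounts. DNA copy number was not analysed here, and all values below are RNA. Chromosome 3 carries genes for matrix proteins of fibroblasts such as Postn, for growth signalling such as Nras and Pik3ca, for mitosis such as Ccna2 and Plk4, and the S100 cluster of small calcium-binding proteins. In bulk RNA, fewer cells of a type and less RNA per cell cannot be told apart.

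The 13 libraries held between 35273408 and 100441756 counts, of which the 730 genes took 4.02 to 4.24% in primary cells and 3.15 to 4.38% in immortalized lines. The smallest value that 3 counts give was 0.0299 to 0.0850 CPM, and such floors and the intervals below cover counting error only. Prkd3 itself stood at 69.8 to 74.8 CPM in WT primary cells, 66.0 to 84.3 CPM in WT lines, 33.9 to 44.0 CPM in Prkd3-/- primary cells and 44.7 to 64.0 CPM in Prkd3-/- lines. Every Prkd3-/- library was thus below every WT library, yet reads of the gene were still counted in all 13. The 10 fibroblast markers summed to 30744 CPM or more in every library, while single markers were lower in some lines, Lum at 0.0434 CPM in WT line 3. The 9 macrophage markers summed to 619 to 642 CPM in WT primary cells and 29.0 to 92.6 CPM in WT lines, and to 86.2 to 1017 CPM in Prkd3-/- primary cells and 10.7 to 171 CPM in Prkd3-/- lines. The 5 endothelial markers did not exceed 29.3 CPM in sum and the 4 epithelial markers did not exceed 4.44 CPM. The WT primary libraries lay far closer together than any others. Over the 14175 autosomal genes that met the CPM rule, the chi-square per gene between pairs of them was 6.31 to 15.8, against 60.9 to 520 between Prkd3-/- primary libraries and 433 or more between WT lines or between Prkd3-/- lines taken in pairs.

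RNA of chromosome 3 was lower than in primary cells in 4 of the 7 lines and near the primary level in the other lines. The shift of a line was the median over the 730 genes of log2((CPM + 0.5)/(mean CPM of the 3 primary libraries of its genotype + 0.5)), less the same median over the 14175 autosomal genes. It was −0.19 in WT line 3, −0.03 in WT line 4 and −0.32 in WT line 5, which put the median gene at 87.8%, 98.0% and 80.0% of its primary level. Among Prkd3-/- lines it was 0.00 in line 13, −0.23 in line 13a, −0.29 in line 14 and −0.06 in line 15, or 100%, 85.4%, 82.1% and 96.1% of the primary level. Lines 13 and 13a, which share an embryo number, were thus the highest and the third lowest of the 7. Each primary library, taken against the mean of the other 2 of its genotype, had a shift between −0.02 and 0.03, and the WT primary libraries stayed within 0.01 of 0. The autosomal median that was taken off was −0.14 to 0.00. Over the alternatives tried, the shifts of the 4 lowest lines lay between −0.34 and −0.14 and those of the other 3 between −0.08 and 0.04.

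**Figure D1:**
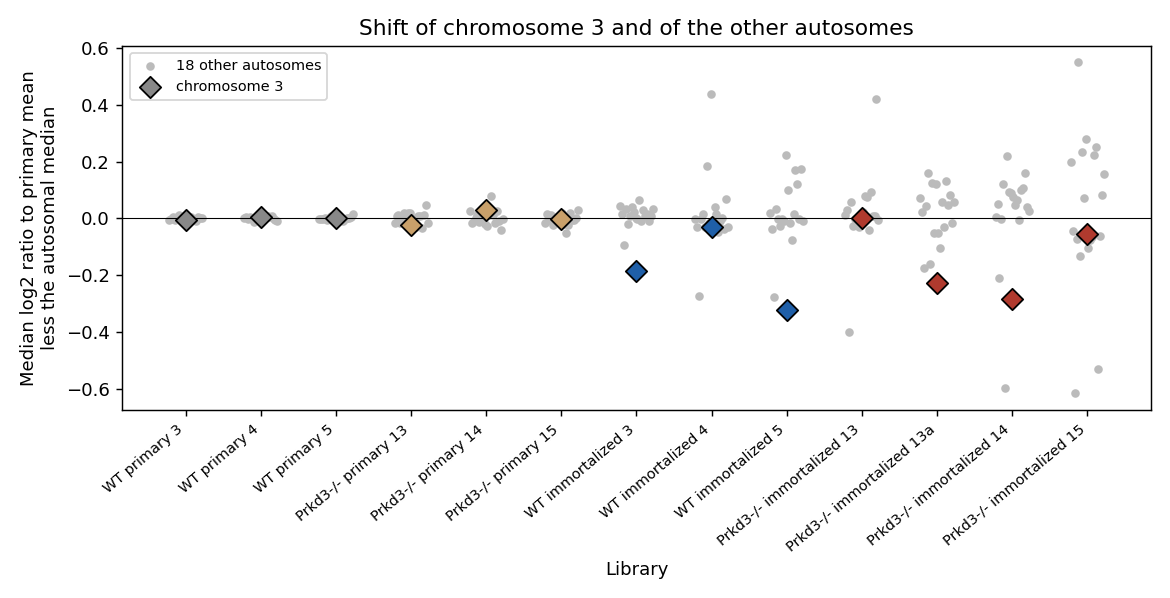
Median log2 ratio of chromosome 3 (diamonds) and of each of the 18 other autosomes (grey points) in the 13 libraries, less the autosomal median, with each line relative to the mean of the 3 primary libraries of its genotype and each primary library relative to the mean of the other 2. The x axis gives the library, and the diamonds of WT lines 3 and 5 and of Prkd3-/- line 13a lie below all 18 other autosomes.

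Set beside the other autosomes, chromosome 3 was the lowest of 19 in WT line 3, WT line 5 and Prkd3-/- line 13a, and the second lowest in Prkd3-/- line 14, where chromosome 7 stood at −0.60. It ranked 5 from the lowest in WT line 4, 8 in Prkd3-/- line 13 and 9 in Prkd3-/- line 15. Chromosome 4 was below 0 in all 7 lines, at −0.10, −0.27 and −0.28 in WT lines 3, 4 and 5. It stood at −0.40, −0.17, −0.21 and −0.62 in Prkd3-/- lines 13, 13a, 14 and 15. Apart from chromosome 3, it was the lowest autosome in every line but Prkd3-/- line 14. The shift is a median over 730 genes, so a few genes cannot set it. A shift below 0 by itself places at least 50% of the genes below 0, and the counts that follow only describe it. By the centring, 50% of all autosomal genes lay below 0 in each line, and of the 730 genes 512 (70.1%) did so in WT line 3, 386 (52.9%) in WT line 4 and 567 (77.7%) in WT line 5. In Prkd3-/- lines the numbers were 365 (50%) in line 13, 548 (75.1%) in line 13a, 521 (71.4%) in line 14 and 418 (57.3%) in line 15. The spread of single genes around the shift was of the same order as for all autosomal genes. The interquartile range was 0.53 against 0.52 in WT line 3 and 0.50 against 0.51 in WT line 5, and it was widest in Prkd3-/- line 13 at 0.99 against 1.02.

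Along the chromosome, the genes were placed in 15 blocks in the order of their start, 50 genes to a block and 30 in the last. Every block lay below 0 in WT line 3, WT line 5, Prkd3-/- line 13a and Prkd3-/- line 14. In WT line 4 9 blocks lay below 0, in Prkd3-/- line 13 8 and in Prkd3-/- line 15 12, whereas of the 268 blocks of other autosomes 37.3 to 52.2% lay below 0, depending on the line. Against the range of all primary blocks of their genotype, 14, 7 and 15 of the 15 blocks were lower in WT lines 3, 4 and 5. For Prkd3-/- lines 13, 13a, 14 and 15 the numbers were 4, 14, 14 and 4, and 3 blocks of WT line 4, 3 of Prkd3-/- line 13 and 1 of Prkd3-/- line 15 were higher than every primary block. The primary range was −0.07 to 0.05 in WT and −0.16 to 0.15 in Prkd3-/- cells. Blocks of other autosomes ran from −0.67 to 0.29, −0.43 to 0.67 and −0.51 to 0.43 in WT lines 3, 4 and 5. In Prkd3-/- lines 13, 13a, 14 and 15 they ran from −0.61 to 0.83, −0.26 to 0.33, −0.96 to 0.46 and −0.79 to 0.64. Such blocks thus also lay outside the primary range on both sides, and their share was not counted.

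**Figure D2:**
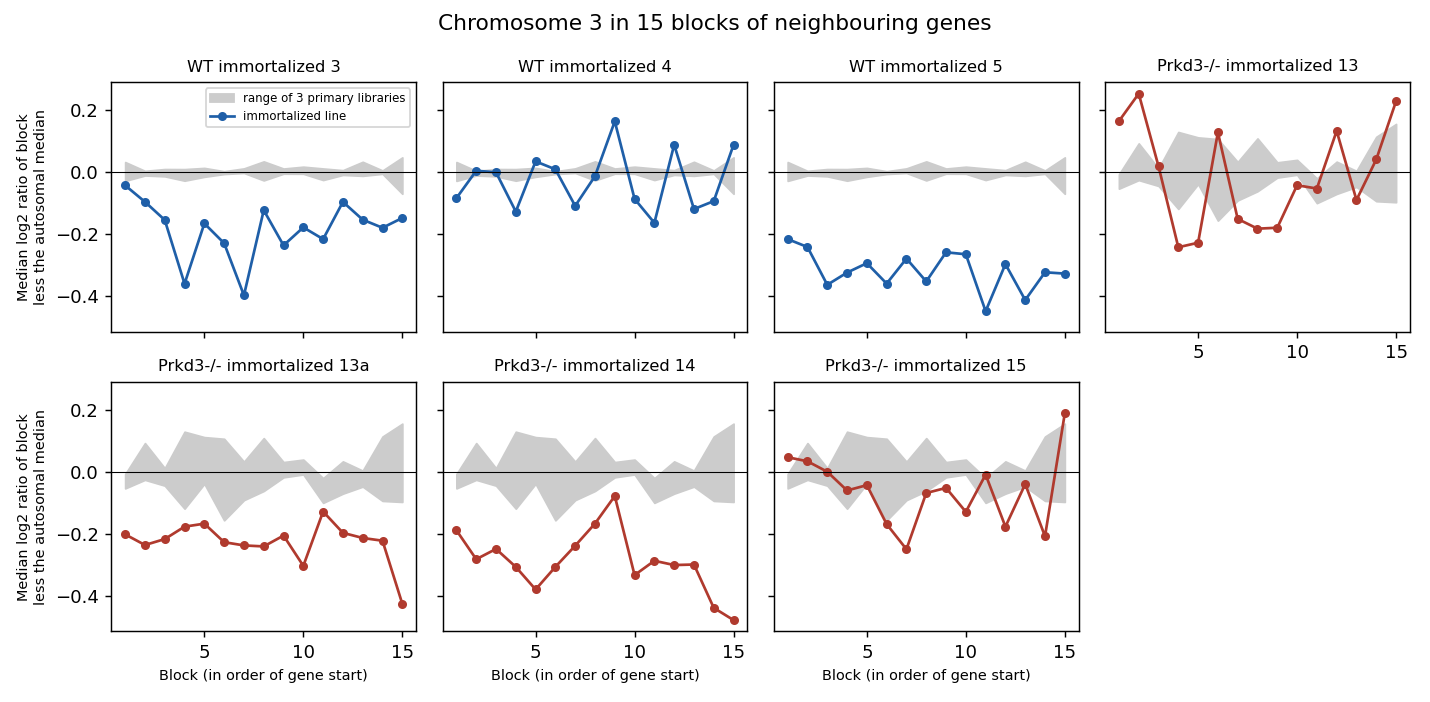
Median log2 ratio, less the autosomal median, of the 15 blocks of neighbouring chromosome 3 genes (x axis, in order of gene start) in each immortalized line (coloured points and lines) and the range of the 3 primary libraries of its genotype in the same block (grey). WT line 5 runs from −0.22 to −0.45 with no block at 0, whereas Prkd3-/- line 13 moves between −0.24 and 0.25.

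The profiles differed in shape. In WT line 5 the highest block was the first, led in abundance by Fndc3b, at −0.22, and the lowest was block 11, which holds Csf1, at −0.45. WT line 3 also had its highest block first, at −0.04, and its lowest was block 7, one of the densest gene stretches of the chromosome, at −0.40. The range between the lowest and highest block was 0.35 in WT line 3, 0.33 in WT line 4, 0.23 in WT line 5, 0.49 in Prkd3-/- line 13, 0.30 in line 13a, 0.40 in line 14 and 0.44 in line 15. In primary libraries it was 0.06 to 0.31. Over the other autosomes of the same line, the median range was 0.28, 0.24 and 0.25 in WT lines 3, 4 and 5. It was 0.54, 0.24, 0.42 and 0.35 in Prkd3-/- lines 13, 13a, 14 and 15. In each line the range of chromosome 3 lay between the lowest and the highest of those autosomes. The chromosome 3 ranges of the lines depended on block size, and with 25 genes to a block they were 0.45 to 0.91. Lines 13a and 14 both had their lowest block at the telomeric end, block 15 with the WNT cargo receptor gene Wls as its most abundant gene, at −0.43 and −0.48. In the same block lines 13 and 15 stood at 0.23 and 0.19.

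Where a profile was split at its largest step, the difference between sides was small in most lines. In WT lines 3 and 5 and in Prkd3-/- line 13 the split fell at 38.4 Mb, between Rps23-ps1 and Ankrd50. Line 13 had a median of 0.23 on the centromeric side and −0.06 beyond it, a difference of −0.29, and the corresponding differences were −0.12 and −0.10 in WT lines 3 and 5. In lines 13a and 14 the split fell at 136.7 Mb, between the zinc transporter gene Slc39a8 and Ppp3ca, a catalytic subunit of calcineurin, with differences of −0.06 and −0.20. In WT line 4 it lay between Mettl14 and Snhg8 at 123.5 Mb with −0.04, and in Prkd3-/- line 15 between Dclk1 and Gm42609 at 55.4 Mb with −0.11. The same procedure gave −0.01 to 0.02 in the WT primary libraries and −0.09 to 0.12 in the Prkd3-/- primary libraries. The positions 38.4 and 136.7 Mb were the first and the last splits tried, where the smaller side held the fewest genes. Every primary library also split at either of these positions, so a shared position cannot be read as a shared step. The steps of all 3 WT lines and of lines 13 and 14 were thus larger in size than those of the primary libraries of their genotype, and those of lines 13a and 15 were not. A step is the largest of the splits tried, so it grows with the spread of single genes. The interquartile range of the genes was 0.50 to 0.53 in WT lines and 0.10 to 0.13 in WT primary libraries. It was 0.48 to 0.99 in Prkd3-/- lines and 0.32 to 0.57 in their primary libraries. Other autosomes were not split, so the comparison cannot show whether a step marks a position.

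Gene density varied more than the shift did. Blocks 6 and 7, with Lmna, which encodes the nuclear lamins A and C, and Ubap2l as their most abundant genes, held 33.6 and 38.0 genes per Mb, against 2.04 in block 1. Of the 730 genes, 592 were protein coding, 53 were processed pseudogenes and 50 were antisense genes. The shift of protein-coding genes and of the other 138 was −0.22 and −0.06 in WT line 3, −0.34 and −0.19 in WT line 5, −0.24 and −0.19 in Prkd3-/- line 13a and −0.30 and −0.25 in Prkd3-/- line 14. When the genes were divided by their level in primary cells, all 3 divisions were below 0 in those 4 lines. From the lowest to the highest division the shift was −0.23, −0.21 and −0.12 in WT line 3 and −0.26, −0.31 and −0.35 in WT line 5. In Prkd3-/- line 14 it was −0.19, −0.30 and −0.35 and in Prkd3-/- line 13a −0.23, −0.22 and −0.24. Genes of the plus and minus strand had shifts of −0.32 and −0.33 in WT line 5 and −0.20 and −0.17 in WT line 3. Of the 730 genes, 334 shared exon bases with another gene and 177 shared at least 10%, and for these the reads of the partner cannot be told apart.

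Of the 730 genes, 67 (9.18%) were below 0 in all 7 lines, compared with 5.79% of all autosomal genes, and 8 (1.10%) were below 0 in no line, compared with 4.4%. In WT, all 3 lines were below every primary library for 310 genes (42.5%; all autosomal genes 25%) and above for 12 (1.64%; 6.78%). In Prkd3-/- cells all 4 lines were below every primary library for 61 genes (8.36%; 4.82%) and above for 7 (0.959%; 4.05%). For 30 genes (4.11%; 2.71%) the lines of both genotypes were below their primary cells. These counts come from the contrast that the choice of chromosome used and are given without a test.

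Single genes were tested in the fit over all genes with edgeR's quasi-likelihood test, and called at an adjusted p under 0.01 and a log2 fold change (log2FC) of at least 1 in size. Genes entered a fit by their counts and not by the CPM rule. Shares and medians over all genes tested, here and below, therefore include genes too low to be among the 730. They are not a like-for-like background. In WT lines 7 of the 730 genes fell (0.959%; 1.76% of the 19836 genes tested) and 0 rose (0.0605% of genes tested). At an adjusted p under 0.05 with no fold limit 30 fell (4.57% of genes tested) and 3 rose (0.696%), and these 3, named after their values were seen, were Gm6204, Dclk1 and Trim2. The median log2FC of the 730 genes was −0.13, beside 0.04 over all genes tested. In Prkd3-/- lines 0 of the 730 genes passed either rule in either direction (0% of 20298 genes tested). At an unadjusted p under 0.05 39 were lower (5.34%; 4.34% of genes tested) and 2 higher (0.274%; 2.22%). DESeq2 called 4 lower (0.549%; 0.479% of the genes it tested), a share near that of all genes, and the median log2FC was −0.09 beside 0.07 over all genes. The WT calls rested on the primary libraries. With any 1 of the 3 WT primary libraries left out 1 of the 7 remained, which was Ctss, and with the embryo number as a replicate block 0 of the 7 passed and 92 of the 730 genes (12.6%; 14% of genes tested) had an unadjusted p under 0.05. Without WT line 3 19 genes were called (2.60%; 2.65% of genes tested) and without WT line 5 15 were called (2.05%; 3.66%).

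The clearest decrease was that of Ctss, the gene of cathepsin S, a lysosomal protease of antigen-presenting cells (ENSMUSG00000038642, plus strand, GRCm38, chr3:95526786-95556403). It stood at 58.8, 59.8 and 62.6 CPM in WT primary cells and 1.99, 1.60 and 3.00 CPM in WT lines 3, 4 and 5. The groups did not overlap, with a log2FC of −4.65 ± 0.24 (SE, n = 3 and 3) and an edgeR adjusted p of 0.000616, or 0.0185 with the replicate block. In Prkd3-/- primary cells it was at 10.5, 125 and 17.7 CPM, and in lines 13, 13a, 14 and 15 at 0, 31.6, 0.116 and 0.633 CPM. Line 13 had no count, which allows up to 0.0570 CPM, and line 13a lay within the primary range. Cd53, a tetraspanin of leukocytes (ENSMUSG00000040747, minus strand, chr3:106759921-106790149), was likewise lower in all 3 WT lines. It went from 26.1, 26.2 and 25.7 CPM to 1.53, 3.15 and 3.10 CPM in WT, a log2FC of −3.19 ± 0.29 with an edgeR adjusted p of 0.00429 (0.0390 with the block). In Prkd3-/- cells it was at 2.90, 45.0 and 6.89 CPM in the primary libraries and at 0.228, 17.2, 4.90 and 0.812 CPM in the lines. For both genes primary library 14 was the highest of its genotype and line 13a the highest line, and these were also the libraries with the highest macrophage marker sums, 1017 and 171 CPM. The part of macrophages in these values was not tested.

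The promoters of these genes are shown because both are leukocyte genes that moved together. They run from 250 bases before to 50 after the start, from RefSeq on GRCm38.p6, at chr3:95526536-95526835 on the plus strand for Ctss and chr3:106790100-106790399 on the minus strand for Cd53. Capitals mark the letters GAGGAA or their reverse complement TTCCTC, the purine-rich letters of the kind that ETS factors such as PU.1 bind, and each window held them 2 times.
Ctss: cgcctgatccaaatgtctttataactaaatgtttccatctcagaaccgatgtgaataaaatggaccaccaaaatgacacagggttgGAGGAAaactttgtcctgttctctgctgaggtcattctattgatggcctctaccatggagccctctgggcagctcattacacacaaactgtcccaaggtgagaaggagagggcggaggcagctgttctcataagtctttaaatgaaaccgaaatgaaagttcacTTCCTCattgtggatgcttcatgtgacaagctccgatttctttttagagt
Cd53: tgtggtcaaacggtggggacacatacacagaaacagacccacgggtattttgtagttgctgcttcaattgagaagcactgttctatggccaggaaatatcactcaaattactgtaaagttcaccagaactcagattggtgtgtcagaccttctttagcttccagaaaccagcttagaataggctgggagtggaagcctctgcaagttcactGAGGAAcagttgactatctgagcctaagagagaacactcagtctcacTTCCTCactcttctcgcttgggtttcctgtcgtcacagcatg
The letters were found in 28.3% of 32851 RefSeq promoter windows of the same length and in 29.1% of the 646 windows of the 494 matched genes among the 730, and a match of letters is no more than that.

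The other genes that fell in WT lines were not on the list of macrophage and immune genes. Gucy1b1, the beta subunit of soluble guanylate cyclase, the nitric oxide receptor, stood at 5.33, 5.53 and 5.97 CPM in WT primary cells and was reduced to 2, 3 and 6 counts in the 3 lines. The lines together held 0.972% of the primary level (95% exact interval 0.484 to 1.75%), and the edgeR adjusted p was 0.000896 (0.0230 with the block). In Prkd3-/- cells Gucy1b1 was at 3.71, 4.48 and 3.66 CPM in primary libraries and 0.0380, 0.962, 0.199 and 0.413 CPM in the lines, again without overlap, although its edgeR adjusted p there was 0.535. Crabp2, which carries retinoic acid to the nucleus, went from 45.1, 46.2 and 43.4 CPM to 10.8, 8.35 and 10.5 CPM in WT, with a log2FC of −2.05 ± 0.12 and an adjusted p of 0.000951 by edgeR. Vav3, a guanine nucleotide exchange factor, went from 8.29, 9.5 and 9.02 CPM to 0.491, 0.883 and 0.473 CPM, with −3.71 ± 0.31 and an adjusted p of 0.00311 by edgeR. All 4 Prkd3-/- lines were also below their primary libraries for Vav3, at 1.01 to 3.14 CPM against 4.20 to 9.23 CPM, with an edgeR adjusted p of 0.65. Ndst3, an enzyme of heparan sulfate modification, and Nceh1, a neutral cholesterol ester hydrolase, complete the 7 and were named after their values were seen, with log2FC of −2.90 ± 0.30 and −1.29 ± 0.14 and edgeR adjusted p of 0.00635 and 0.00726. In Prkd3-/- line 15 Ndst3 stood at 9.75 CPM, above the 2.0 to 3.43 CPM of the primary libraries.

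**Figure D3:**
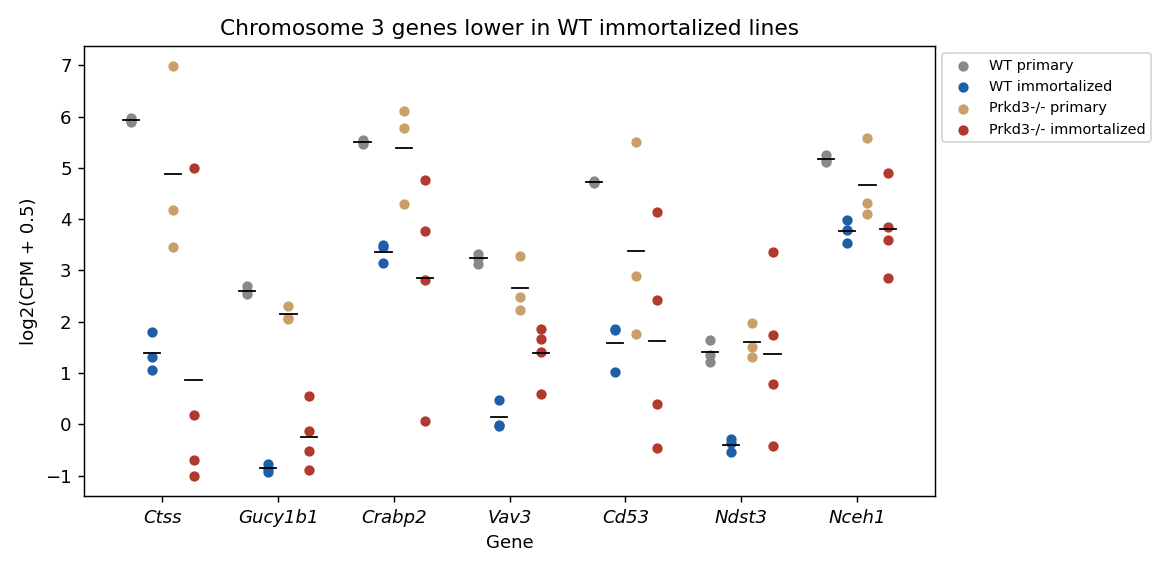
Expression as log2(CPM + 0.5) of the 7 chromosome 3 genes that fell in WT immortalized lines (x axis), in every library of the 4 groups (points) with the group mean (bars). The WT groups do not overlap for any of the 7. The Prkd3-/- groups do not overlap for Gucy1b1 and Vav3. For Ctss, Cd53, Crabp2, Ndst3 and Nceh1 single Prkd3-/- lines lie within or above the range of the Prkd3-/- primary libraries.

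The gene lists are given by the log2 ratio of each line to its primary mean, less the autosomal median, so that a median near the shift of the line is what the chromosome as a whole showed. The 9 macrophage and immune genes had medians of −2.66 and −2.72 in WT lines 3 and 4 and −2.66 and −2.30 in Prkd3-/- lines 13 and 15, but 0.43 in WT line 5, −0.06 in line 13a and −0.30 in line 14. In WT 2 of the 9, Ctss and Cd53, passed the test as lower (1.76% of genes tested). Within the list, Tlr2, the receptor for bacterial lipopeptides, stood at 21.1, 19.9 and 22.2 CPM in WT primary cells and at 6.23, 4.98 and 37.8 CPM in lines 3, 4 and 5. Gbp3, an interferon-induced GTPase, was likewise at 13.6 to 15.1 CPM in WT primary cells, at 0.650 and 1.19 CPM in lines 3 and 4 and at 26.1 CPM in line 5. WT line 5 thus held both leukocyte genes low and the inducible genes Tlr2 and Gbp3 above the primary level. Csf1, the growth factor of macrophages that fibroblasts secrete, did not pass the test, at 383 to 421 CPM in WT primary cells and 522, 301 and 516 CPM in WT lines. Of the genes of this list below the CPM rule, Fcgr1, a leukocyte Fc receptor, was at 12 to 14.8 CPM in WT primary cells and at most 0.365 CPM in WT lines. Sirpb1a, Sirpb1b, Sirpb1c, P2ry12, P2ry13 and Tnfsf10 were also below every WT primary library, at 0.275 CPM or less in WT lines. P2ry14 reached 1.42 CPM in WT line 4, against 0.649 to 1.04 CPM in WT primary cells. Gbp5 reached 1.39 CPM in WT line 5, against 0.684 to 0.722 CPM, and Cd2 had no counts.

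The 13 cell division genes split the lines. Their median was −0.08, −0.31 and −1.38 in WT lines 3, 4 and 5, 1.22 in Prkd3-/- line 13, −0.55 in lines 13a and 14 and 0.45 in line 15. All 13 were below 0 in WT lines 4 and 5 and in Prkd3-/- line 14, and 1 of 13 in Prkd3-/- line 13. Ccna2, the cyclin of S phase and mitotic entry, was at 66.4 to 77.8 CPM in WT primary cells, at 18.1 CPM in WT line 5 and at 302 CPM in Prkd3-/- line 13, whose primary libraries had 57.1 to 113 CPM. Ect2, a guanine nucleotide exchange factor for cytokinesis, was at 28.9 to 32.9 CPM in WT primary cells, 8.35 CPM in WT line 5 and 177 CPM in Prkd3-/- line 13. Smc4, a condensin subunit, and Cenpe, a kinetochore motor, had 27.6 and 12.2 CPM in WT line 5 and 258 and 137 CPM in Prkd3-/- line 13. The exception in line 13 was Psrc1, a microtubule-binding protein gene, at 16.5 CPM against 64.7 to 71.0 CPM in the primary libraries. None of the 13 passed the test in either genotype.

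The medians of the 29 growth signalling and cancer genes lay near the shift of each line. They were −0.13, 0.06 and −0.33 in WT lines 3, 4 and 5 and 0.01, −0.32, −0.40 and −0.04 in Prkd3-/- lines 13, 13a, 14 and 15, and 19, 10 and 23 of 29 were below 0 in WT lines 3, 4 and 5 and 13, 25, 18 and 16 in lines 13, 13a, 14 and 15. Pik3ca, the catalytic subunit of PI3 kinase alpha, stood at 85.7 to 87.7 CPM in WT primary cells and at 79.5, 83.5 and 65.7 CPM in WT lines. Nras, a RAS family GTPase, stood at 78.7 to 81.2 CPM in WT primary cells and at 86.7, 67.6 and 43.9 CPM in WT lines, and in Prkd3-/- line 13 it was at 147 CPM against 93.2 to 113 CPM. Bcl9, a WNT pathway cofactor gene, was the 1 gene of the list that fell at the looser limit in WT (4.57% of genes tested). It went from 71.1 to 73.0 CPM to 46.9 to 50.3 CPM, with a log2FC of −0.43 and an edgeR adjusted p of 0.0471 (0.213 with the block). Lef1, which the CPM rule left out, was at 0.373 to 0.618 CPM in WT primary cells. It was at 7.83, 1.22 and 0.532 CPM in WT lines 3, 4 and 5, with an edgeR adjusted p of 0.227.

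The 24 matrix and mesenchyme genes were the list with a negative median in all 7 lines, at −0.99, −0.45 and −0.30 in WT and −1.44, −0.27, −0.38 and −0.53 in Prkd3-/- lines 13, 13a, 14 and 15. In WT line 5 and lines 13a and 14 the median was near the shift of the chromosome, −0.32, −0.23 and −0.29. Of the 24 genes, 18, 16 and 17 were below 0 in WT lines 3, 4 and 5. In Prkd3-/- lines 13, 13a, 14 and 15 the numbers were 18, 15, 14 and 17. The spread behind the list medians was wide. Postn, the matricellular protein periostin, was at 908 to 1009 CPM in WT primary cells and at 15.2, 5584 and 1336 CPM in WT lines 3, 4 and 5. Col11a1, a fibrillar collagen chain, was at 719 to 806 CPM in WT primary cells and at 60.0, 1430.0 and 228 CPM in the same lines. In line 13 of Prkd3-/- cells Postn was at 32.1 CPM and in line 14 at 1823 CPM, with primary libraries between 180 and 911 CPM. At an adjusted p under 0.05 3 of the 24 fell in WT lines (4.57% of genes tested) and 1 rose (0.696%). Sfrp2, a secreted WNT inhibitor, held 1, 28 and 38 counts in the 3 WT lines, together 0.590% of the primary level (95% exact interval 0.457 to 0.750%; edgeR adjusted p 0.0133), whereas in Prkd3-/- lines 13a and 14 it stood at 52.5 and 280 CPM, above the 2.65 to 39.3 CPM of the primary libraries. The protocadherin gene Pcdh10 held 4, 2 and 31 counts, 1.32% of the primary level (0.928 to 1.83%; edgeR adjusted p 0.0222), and Pcdh18 had a log2FC of −1.07 with an edgeR adjusted p of 0.0118. Dclk1, a microtubule-associated kinase, was the one that rose, with a log2FC of 0.73 and an edgeR adjusted p of 0.0423. With the replicate block none of these 4 passed, and the edgeR adjusted p was 0.0683 for Sfrp2, 0.0683 for Pcdh10, 0.0961 for Pcdh18 and 0.201 for Dclk1. Cp, the copper-binding protein ceruloplasmin, was near 10 CPM in WT primary cells and reached 287 CPM in WT line 5 and 299.6 CPM in Prkd3-/- line 14, while other lines were at 29.2 CPM or less.

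**Figure D4:**
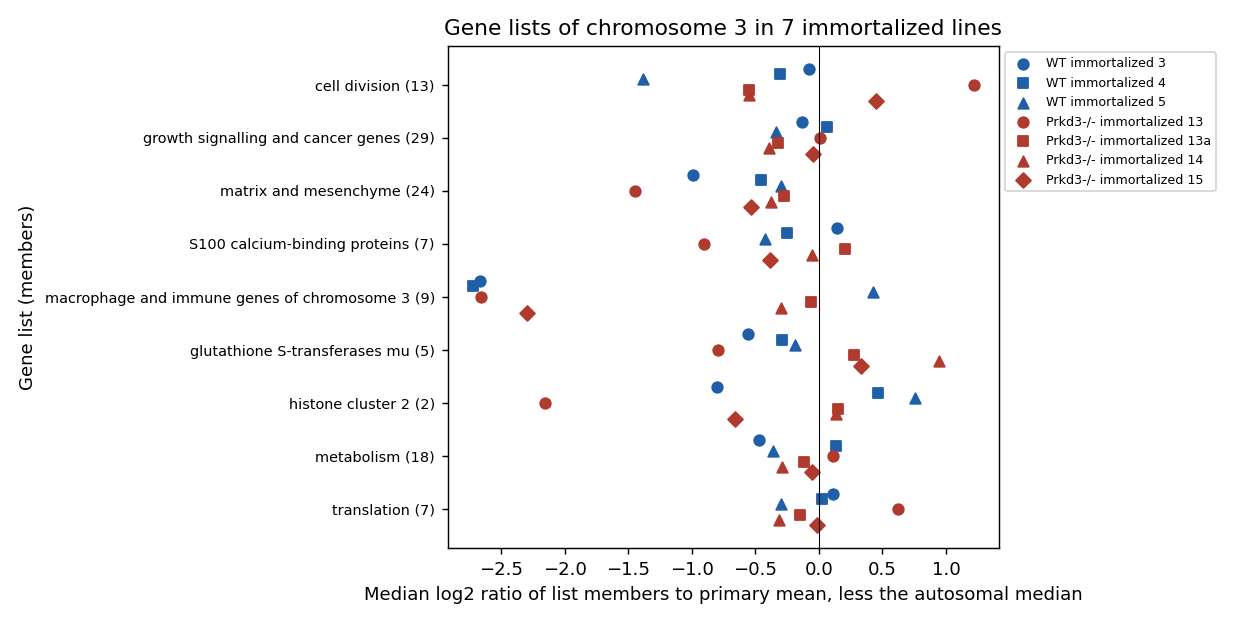
Median log2 ratio to the primary mean, less the autosomal median, of the members of 9 chromosome 3 gene lists (y axis, number of members in brackets) in the 7 immortalized lines (symbols). Matrix and mesenchyme genes have negative medians in all 7 lines, and cell division genes range from −1.38 in WT line 5 to 1.22 in Prkd3-/- line 13.

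The smaller lists were as follows. The medians of the 7 S100 genes lay between −0.90 in Prkd3-/- line 13 and 0.21 in line 13a, and none passed the test in the lines. S100a6, the most abundant, was at 630 to 668 CPM in WT primary cells and 709, 351 and 467 CPM in WT lines, and S100a4, 52% of whose exon bases overlap another gene, at 481 to 640 CPM and 643, 200 and 317 CPM. The medians of the 5 mu class glutathione S-transferase genes, enzymes of detoxification, were below 0 in the WT lines (−0.56, −0.29 and −0.19) and in Prkd3-/- line 13 (−0.80) and above it in lines 13a, 14 and 15 (0.28, 0.94 and 0.33). Gstm1 stood at 178 CPM in line 14 against 26.8 to 42.0 CPM in the Prkd3-/- primary libraries, and Gstm4 fell in WT at the looser limit (log2FC −0.74, edgeR adjusted p 0.0378, or 0.196 with the block). The 2 genes of histone cluster 2 that met the CPM rule, Hist2h3c1 and Hist2h3c2, had medians of −0.80, 0.46 and 0.75 in WT lines and −2.16, 0.15, 0.13 and −0.66 in Prkd3-/- lines. Hist2h3c1 shared all of its exon bases with another gene. Among 18 metabolic genes the medians lay between −0.47 in WT line 3 and 0.14 in WT line 4. Of these Fabp4, the fatty acid binding protein of adipocytes and macrophages, fell at the looser limit, from 4.35 to 6.31 CPM to 0.520 to 1.40 CPM (log2FC −2.50, edgeR adjusted p 0.0309, or 0.0556 with the block). The 7 translation genes had medians between −0.32 in Prkd3-/- line 14 and 0.62 in line 13.

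The comparison of Prkd3-/- with WT primary cells did not enter the choice of genes or chromosome. The 2 genotypes were in separate count tables, so that genotype and table cannot be told apart. As a whole chromosome 3 was nearly level. The median log2 ratio of its genes to the mean of the 6 primary libraries, less the autosomal median, was −0.0094 ± 0.0005 (SD, n = 3) in WT and 0.0085 ± 0.0138 (SD, n = 3) in Prkd3-/- primary cells. The difference of 0.02 had an exact permutation p of 0.1, two-sided, the smallest that 3 against 3 libraries can give. Without Prkd3-/- primary library 15 the difference was 0.03, and with any 1 library left out it lay between 0.01 and 0.03 with an exact p of 0.1 to 0.3, where 0.1 is the smallest that 2 against 3 can give. Of the 730 genes 6 were higher (0.822%; 0.230% of the 20403 genes tested) and 2 lower (0.274%; 0.534%) in Prkd3-/- cells, and at an adjusted p under 0.05 30 were higher (4.11%; 2.56%) and 29 lower (3.97%; 3.48%). The median log2FC was 0.04, beside 0.01 over all genes.

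The strongest differences were in 2 ribosomal protein genes. Rpl34 stood at 4.21, 3.59 and 4.35 CPM in WT and 51.7, 74.7 and 49.3 CPM in Prkd3-/- primary cells, a log2FC of 3.84 ± 0.18 with an edgeR adjusted p of 0.000702. Its level in the lines was near that of their primary cells, with 2.76 to 3.99 CPM in WT and 46.4 to 69.5 CPM in Prkd3-/- lines. Rps3a1 stood at 20.0, 19.8 and 25.9 CPM in WT and 166, 224 and 162 CPM in Prkd3-/- primary cells (log2FC 3.05 ± 0.17, edgeR adjusted p 0.000894). In WT lines 3, 4 and 5 it was at 67.8, 66.6 and 21.9 CPM, with an adjusted p against primary cells of 0.177 by edgeR and 0.0309 by DESeq2, and in Prkd3-/- lines at 169 to 259 CPM. Ribosomal protein genes have many near-identical processed pseudogenes, so that their counts depend on how shared reads were assigned and are uncertain. Rps27, the ribosomal gene of block 7, had 2.07 to 2.46 and 2.41 to 3.12 CPM in the same libraries and did not pass the test. Slc6a17, an amino acid transporter of synaptic vesicles, was higher in Prkd3-/- primary cells, at 9.98 to 12.1 CPM against 1.51 to 1.68 CPM (log2FC 2.75 ± 0.15, edgeR adjusted p 0.000883). Of the 7 S100 genes 2 were lower (3.48% of genes tested) and 2 higher (2.56%) in Prkd3-/- primary cells at the looser limit. S100a16 was at 32.5 to 35.5 CPM in WT and 9.38 to 14.4 CPM in Prkd3-/- cells (edgeR adjusted p 0.0146) and S100a13 at 20.0 to 20.2 and 15.3 to 16.1 CPM (0.0372), whereas S100a6 was at 630 to 668 and 844 to 1016 CPM (0.0413) and S100a11 at 168 to 175 and 225 to 313 CPM (0.0374). Mcub, the inhibitory subunit of the mitochondrial calcium uniporter, and Capza1, an actin capping subunit, were higher by a log2FC of 1.56 ± 0.09 and 1.68 ± 0.11. The sixth, Noct, a gene of circadian rhythm named after its values were seen, had a log2FC of 1.57 ± 0.18 and an edgeR adjusted p of 0.00999. Fam241a and the processed pseudogene Gm6394 were lower by a log2FC of −2.38 ± 0.24 and −2.18 ± 0.22. Gm6394 stood at 24.4 to 37.2 CPM in WT and 5.33 to 7.80 CPM in Prkd3-/- primary cells. Without WT primary library 3, or without 4, 0 of the 8 were called, and without 5 2 were called. Without Prkd3-/- primary library 14 41 genes were called (5.62%; 7.13% of genes tested), and without 15 5 were (0.685%; 0.354%).

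**Figure D5:**
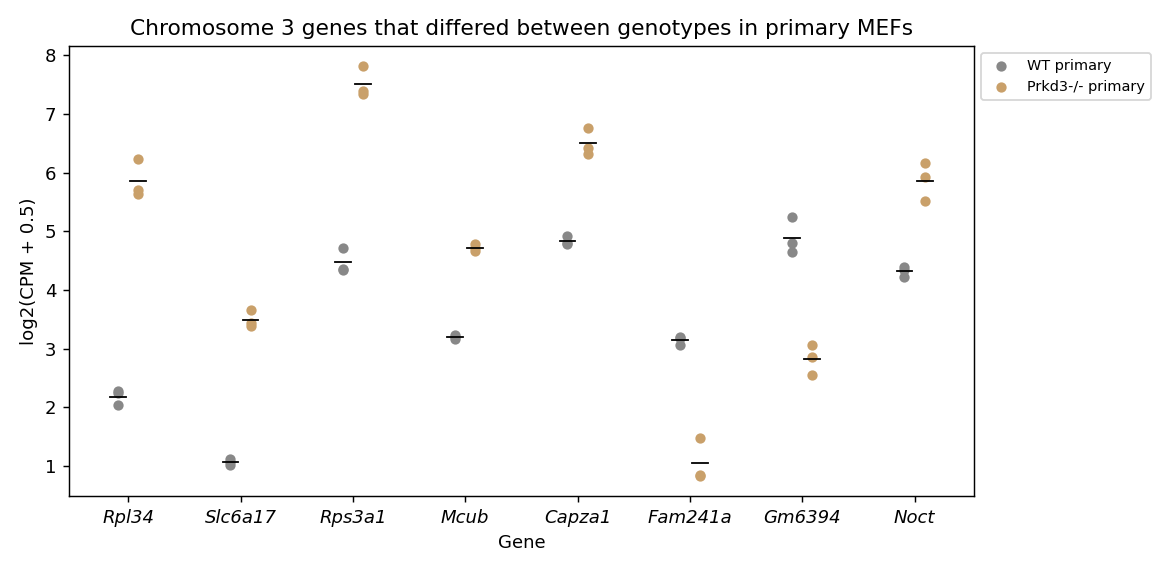
Expression as log2(CPM + 0.5) of the 8 chromosome 3 genes that differed between genotypes in primary MEFs (x axis), in the 3 WT and 3 Prkd3-/- primary libraries (points) with the group mean (bars). Rpl34 and Rps3a1 show the widest gaps, from 3.59 to 4.35 CPM up to 49.3 to 74.7 CPM for Rpl34, and the groups do not overlap for any of the 8.

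The CPM rule had its edge among low genes. Just inside it were Amy1, Gm10355 and Gm5855, each with a lowest primary value of 1.01 CPM, and just outside were Lenep at 0.986 CPM, Gm43587 at 0.976 CPM and Nudt17 at 0.971 CPM.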

How the data were processed

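The authors aligned 100-base paired reads to mm10 (GRCm38) with STAR 2.7.10a and counted pairs per gene of Ensembl release 102 with featureCounts (Subread 2.0.6), using uniquely mapped reads per their methods. They deposited raw counts in 2 tables, 1 per genotype. The header of the WT table gives pairs counted for every gene they overlap, without strand. The options for the Prkd3-/- table were not given in the sources used here. Here the tables were joined on 55487 gene IDs. CPM was taken over each library's total count. The CPM minimum was 1 and the pseudocount 0.5.

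Counts were tested with edgeR 4.0.16 in R 4.3.3 (TMM, filterByExpr, robust quasi-likelihood fit, Benjamini-Hochberg adjustment over all genes tested), within WT, within Prkd3-/- and between primary groups. DESeq2 1.42.0, other filters and scalings, a replicate block and leaving out each library were alternatives. The embryo number is shared by a primary library and its line, so the numbers pair the samples by design. Deviations of same-numbered libraries correlated at −0.10 to 0.04 in WT and −0.34 to 0.12 in Prkd3-/- cells. Where p-values are given, n counts embryos (WT) or numbered cultures (Prkd3-/-).

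The genes and lists were chosen with earlier results of these data known. Genes named were the most abundant of each block, list members, genes beside a step and the 5 smallest p per direction among calls. Others are named as chosen after their values were seen. The scripts for the gene fits and the chromosome shift were tested on simulated counts. Symbols (729 of 730) came from the Ensembl ID table, biotypes from GENCODE on GRCm38 and promoters from RefSeq. Overlaps were computed from the exon positions given with the counts.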

Additional observations from a re-analysis of the deposited data

Results flagged for a closer look

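Values of the 4 Prkd3-/- lines were checked for 1 line that stood far from the other 3, for the shift, for the 15 blocks and for genes of the lists and calls, 63 sets in all, and chance marks about 1 in 20 such sets. In this check 3 were marked. In block 7, led by Ubap2l, line 13 stood at −0.15 while lines 13a, 14 and 15 lay between −0.24 and −0.25. For Rpl34 the log2 ratio to the primary mean, less the autosomal median, was 0.25 in line 13 and between −0.31 and −0.28 in the other lines. For Tlr2 it was −0.58 in line 13a, against −2.76 to −2.52 in lines 13, 14 and 15. Line 13a was also the line with the highest macrophage marker sum, 171 CPM, and the part of macrophages in this value was not tested.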

How the results depend on the processing

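The shifts of the 7 lines moved by less than their SD among lines of a genotype under every alternative run (pseudocount, CPM minimum, scaling, each primary library left out). That SD was 0.146 in WT and 0.136 in Prkd3-/- lines. It is a wide limit that reflects how far lines differ and not measurement error. WT line 4 ran from −0.08 to 0.0008, Prkd3-/- line 13 from −0.05 to 0.04 and WT line 5 from −0.34 to −0.23. The block range grew with smaller blocks: with 25 genes it was 0.55, 0.62 and 0.45 in WT lines 3, 4 and 5 and 0.91, 0.55, 0.60 and 0.61 in Prkd3-/- lines 13, 13a, 14 and 15. With windows of 10 Mb it was 0.47, 0.41, 0.34 and 0.62 in WT lines 3, 4 and 5 and Prkd3-/- line 13. For WT, the 7 genes called became 33 at an adjusted p under 0.05. Of these 30 were lower (4.11%; 4.57% of genes tested) and 3 higher (0.411%; 0.696%). DESeq2 called 30 (4.14%; 4.08% of all genes it tested). The number was 11 scaled by library size alone (1.51%; 2.02%), 11 with no filter (1.51%; 1.44%) and 0 with the replicate block. With 1 library left out it was 1 to 19 (0.137 to 2.60%; 0.237 to 3.66% of all genes). For Prkd3-/- lines DESeq2 called 4 against 0, and leaving out any library gave 0. For primary cells the 8 calls became 59 at an adjusted p under 0.05. Of these 30 were higher (4.11%; 2.56% of genes tested) and 29 lower (3.97%; 3.48%). The number was 23 with DESeq2 (3.16%; 2.48%) and 13 with no filter (1.78%; 0.992%), and 0 to 41 with 1 library left out (0 to 5.62%; 0.00944 to 7.13%). The causes were not tested. The block was run within WT and within Prkd3-/- cells, and in the latter 0 genes were called with or without it. The primary groups share no number to block on. The 3 or 4 libraries a group and the spread among Prkd3-/- primary libraries limit what single genes can show, and RNA gives no copy number.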
